A study of Homo sapiens with 15 samples.

Results

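MCL1 and 9 other genes of the BCL2 family were followed across 5 glutamine concentrations. The 10 genes were chosen by symbol, from 62754 genes in the count table, and are the anti-apoptotic MCL1, BCL2L1 and BCL2L2, the effectors BAX and BAK1, and the BH3-only genes BCL2L11, BBC3, PMAIP1, BID and BAD. All 10 were found and all 10 passed the filter on low counts, which left 13828 genes for testing. BCL2 family proteins decide whether the outer mitochondrial membrane stays closed. The anti-apoptotic proteins hold the effectors BAX and BAK1 in check, BH3-only proteins bind and neutralise them or activate the effectors, and open effectors release cytochrome c, which starts the caspase cascade. MCL1 is known for a short-lived transcript and a short-lived protein, so its level follows its synthesis closely.

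The cells were MCF10A, an immortalised, non-tumorigenic human mammary epithelial line, wild type in all groups. They were kept in DMEM/F12 with mammary epithelial supplements, cholera toxin and antibiotics. The control group had full medium with 2.5 mM glutamine, and the limited groups had glutamine-free medium brought to 0.28, 0.20, 0.12 or 0.04 mM. Each group had 3 libraries of ribosome-depleted total RNA, described as biological replicates, and no source used here says how long the cells were kept at each concentration. All values are transcript levels, since the proteome that the title mentions was not analysed here.

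Gene counts per library ran from 3704170 to 13361406. Summed levels of 9 basal mammary epithelial markers lay between 16700 and 28300 CPM (library-scaled counts) in every group, and those of 5 luminal markers between 476 and 608 CPM. Of the markers of fibroblasts, immune cells and endothelium, LUM, CD3E and CDH5 were at 0 in all libraries. Some that were found in full medium were at 0 in whole limited groups: COL1A2 at 0.12 mM and 0.04 mM, PDGFRA at 0.04 mM, VWF at 0.28 mM and 0.20 mM, and CD68 at 0.20 mM. PTPRC was at 0 in every group but 0.04 mM. Only DCN and COL1A1 of the 6 fibroblast markers and PECAM1 of the 3 endothelial markers passed the filter on low counts. The 6 fibroblast markers summed to 33.2 to 45.8 CPM in full medium and 50.4 to 61.0 CPM at 0.04 mM, and the 3 endothelial markers to 3.34 to 5.56 and 4.92 to 11.9 CPM. On the log2 scale PECAM1, an endothelial adhesion protein, rose by 0.81, 0.80 and 0.85 at 0.04 mM, 0.12 mM and 0.20 mM. DCN, which encodes the fibroblast proteoglycan decorin, rose by 0.62, 0.49 and 0.65 there, and the collagen gene COL1A1 by 0.46 at 0.04 mM, on the same scale. Omitting single libraries ended the calls of PECAM1 at 0.04 mM (replicate 3 there or 2 of full medium, 0.61 to 0.96) and at 0.12 mM (replicate 2 there or 2 or 3 of full medium, 0.70 to 0.85), of DCN at 0.12 mM (replicate 2 or 3 there or 3 of full medium, 0.37 to 0.62) and of COL1A1 (replicate 1 or 2 of either group, 0.36 to 0.53). With spike-in scaling the calls at 0.12 mM and that of COL1A1 were lost, and without the block all of them. The part of these markers in the results was not tested. Mitochondrial rRNA made up 2.97% of gene counts in replicate 3 at 0.04 mM and 1.62% in replicate 3 at 0.12 mM, and at most 0.402% in the other libraries. Without the 2 libraries above 1%, the calls of PECAM1 at 0.04 mM (0.62, adjusted p = 0.12, edgeR) and DCN at 0.12 mM (0.41, adjusted p = 0.0661) were lost. The replicate number entered the fit as a block, because libraries that share one deviated together, and values are read within a number. The words rose and fell are kept for an adjusted p under 0.05 in edgeR's quasi-likelihood test, with Benjamini-Hochberg adjustment over the 13828 genes.

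MCL1 (ENSG00000143384, chromosome 1, 150574558 to 150579610, minus strand, GRCh38) rose at each limited concentration against full medium. It was the only one of the 10 members that passed the test in any of these comparisons. With the scaling used here the rise was about as large at 0.28 mM as at 0.04 mM, so the step lay between full medium and the limited range. With spike-in scaling the values were further apart, 0.45 at 0.04 mM and 0.28 at 0.28 mM. RNA was pooled from whole cultures, so more RNA per cell cannot be told apart from a change in which cells were present.

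In full medium MCL1 stood at 817, 913 and 936 CPM in replicates 1, 2 and 3 (mean 889, SD 63.2, n = 3). At 0.28 mM it stood at 1052, 1166 and 1321 CPM (mean 1180, SD 135, n = 3), and at 0.20 mM at 1046, 1233 and 1313 CPM (mean 1197, SD 137, n = 3). Every limited library was above every full medium library, and replicate 1 was the lowest of its group in all 5 groups. At 0.12 mM the values were 1083, 1249 and 1253 CPM (mean 1195, SD 97.4, n = 3), and at 0.04 mM they were 1148, 1268 and 1234 CPM (mean 1217, SD 62.0, n = 3). The 4 limited groups overlapped each other.

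**Figure D1:**
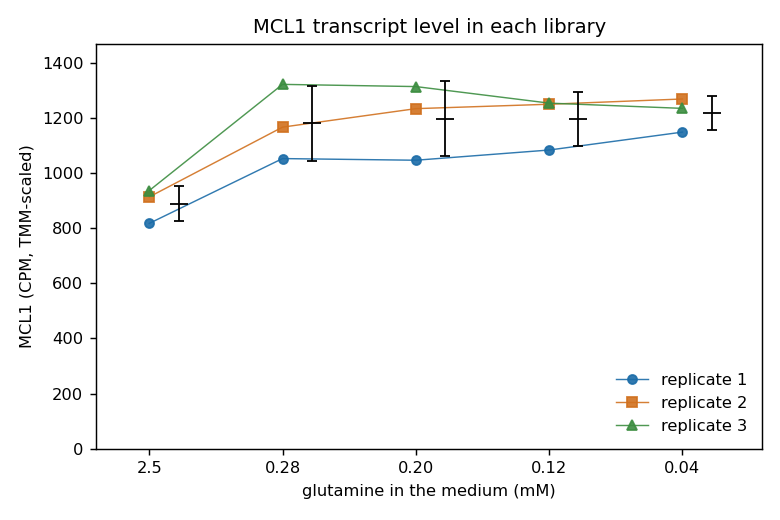
MCL1 in CPM (y axis) at each glutamine concentration in mM (x axis), with lines joining libraries of the same replicate number and black bars showing the group mean with 1 SD (n = 3). The full medium libraries sit between 817 and 936 CPM and the 12 limited libraries between 1046 and 1321 CPM.

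Against full medium, MCL1 rose by 0.46 on the log2 scale at 0.04 mM (SE 0.0727, 95% interval 0.31 to 0.60, adjusted p = 9.05e-05, edgeR), a fold of 1.37. Within replicate numbers the differences were 0.49, 0.47 and 0.40, higher in 3 of 3 pairs. The rise was 0.43 at 0.12 mM (SE 0.0726, adjusted p = 0.000415) and 0.43 at 0.20 mM (SE 0.0726, adjusted p = 0.000193). At 0.28 mM it rose by 0.41 (SE 0.0725, 95% interval 0.26 to 0.55, adjusted p = 0.00261), a fold of 1.32, with differences of 0.36, 0.35 and 0.50 within numbers. The 4 comparisons share the full medium libraries, so they are not independent of each other. A test of any difference among the 5 groups gave adjusted p = 0.000248 (edgeR), and MCL1 was again the only one of the 10 members past it, where 10.7% of all genes passed.

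These calls rest on the block. Without it the changes were 0.45, 0.43, 0.43 and 0.41 at 0.04 mM, 0.12 mM, 0.20 mM and 0.28 mM, with adjusted p = 0.157, 0.39, 0.308 and 1.0 (edgeR, unadjusted p = 0.00167 to 0.00367). With libraries scaled to the summed spike-in counts, the rise at 0.04 mM was kept (0.45, adjusted p = 0.0235), and the values at 0.12 mM, 0.20 mM and 0.28 mM were 0.24, 0.37 and 0.28 (adjusted p = 0.204, 0.0788 and 0.27). Under that scaling the median of all genes was -0.177 at 0.12 mM and -0.129 at 0.28 mM, and relative to the median MCL1 was higher by 0.448, 0.421, 0.42 and 0.41. Scaling moves all genes of a library alike, so subtracting the median largely undoes it. These 4 values are therefore no further support for the rise. At 0.28 mM the call was lost without replicate 3 of that group (0.36, adjusted p = 0.0803), and at 0.12 mM it was lost when the pair of groups was fitted alone (0.42, adjusted p = 0.0538). Without the 2 libraries high in mitochondrial rRNA the rise was 0.51, 0.45, 0.42 and 0.40, and MCL1 passed at all 4 concentrations.

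Within the limited range MCL1 did not pass a test of change. Between 0.04 and 0.28 mM the difference was 0.0498 (SE 0.0725, 95% interval -0.10 to 0.20, adjusted p = 0.883, edgeR), with 0.13, 0.12 and -0.10 within replicate numbers. The interval leaves room for a difference of up to 0.20 on the log2 scale. The slope per doubling of glutamine over the 12 limited libraries was -0.0161 (SE 0.0233, 95% interval -0.06 to 0.03, adjusted p = 0.921). With spike-in scaling the difference between 0.04 and 0.28 mM was 0.17 (adjusted p = 0.648, edgeR). The slope of MCL1 was -0.0436 without replicate 3 and -0.0415 without the libraries high in mitochondrial rRNA (adjusted p = 0.711 and 0.708, edgeR). None of the 10 members passed in either test with edgeR, and 0 of 10 had an unadjusted p under 0.05. DESeq2 gave an adjusted p only for MCL1, BCL2L1 and BAK1 between 0.04 and 0.28 mM (0.777, 0.918 and 0.857). In the slope it gave one only for MCL1 (0.763), so for the other members it made no call either way. The background was also low, with 0.0434% of all genes past the test between 0.04 and 0.28 mM and 0.0% past the slope test, where 1063 genes had an unadjusted p under 0.05 and DESeq2 called 25. With full medium added to the slope fit, MCL1 (-0.0803, adjusted p = 0.000111) and BCL2L1 (-0.0356, adjusted p = 0.0384) passed. Over all genes 2163 of 13828 passed that fit, so this count of members is near the background. That fit takes in the step from full medium and shows no change within the limited range.

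Across the family, 1 of 10 members rose and 0 fell at each concentration against full medium. At 0.04 mM 13.4% of all genes passed the test (7.21% upwards and 6.23% downwards). At 0.12 mM 8.31% passed it (4.41% and 3.9%), at 0.20 mM 14.8% (7.67% and 7.15%), and at 0.28 mM 2.08% (1.23% and 0.846%). A count of 1 in 10 is therefore close to the background at 3 of the 4 concentrations. DESeq2 called the same 1 member each time, but gave no adjusted p for BBC3 and PMAIP1 at 0.28 mM. With edgeR 3, 2, 1 and 3 members had an unadjusted p under 0.05 at 0.04 mM, 0.12 mM, 0.20 mM and 0.28 mM. Over all genes 3749, 3090, 3931 and 2196 of 13828 did. These counts of members are therefore near or below the background at 0.04 mM, 0.12 mM and 0.20 mM. The median change of the 10 members was 0.14, 0.084, 0.059 and 0.0137, beside 0.00635, 0.00472, 0.00328 and 6.75e-05 for all genes tested. Of the other 9 members, the lowest adjusted p was 0.0645, 0.0663, 0.249 and 0.0916.

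**Figure D2:**
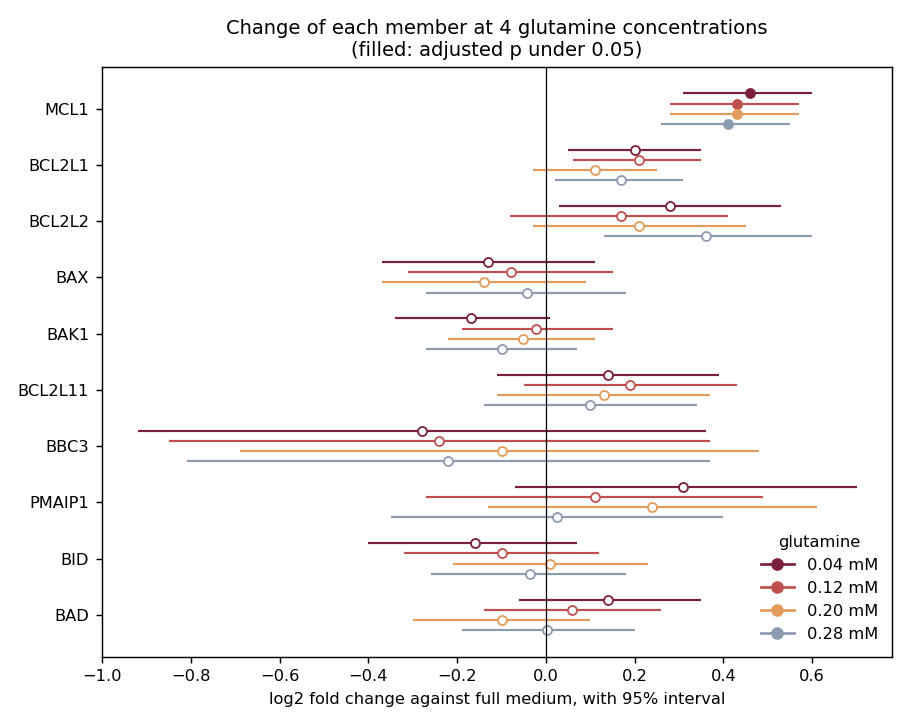
The log2 fold change of each member against full medium (x axis, points with 95% intervals) at the 4 limited concentrations (colours), with filled points where the adjusted p was under 0.05. All 4 points of MCL1 are filled, between 0.41 and 0.46, and all points of the other 9 members are open.

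BCL2L1 encodes BCL-XL, an anti-apoptotic protein that guards the same membrane as MCL1. Its transcript stood at 115, 118 and 103 CPM in full medium, 122, 132 and 125 at 0.28 mM, 118, 137 and 109 at 0.20 mM, with 126, 130 and 134 at 0.12 mM and then 127, 131 and 128 at 0.04 mM. All 12 limited libraries were above the full medium library of the same number, and at 0.28, 0.12 and 0.04 mM the groups did not overlap. The difference from full medium was 0.20 at 0.04 mM (SE 0.0723, 95% interval 0.05 to 0.35, adjusted p = 0.0645, edgeR) and 0.21 at 0.12 mM (SE 0.0711, adjusted p = 0.0663), so neither passed the test. Without replicate 1 of full medium both did (0.24 each, adjusted p = 0.0391 and 0.0382). The value is uncertain where reads were counted without strand, because 43.0% of the exonic bases of BCL2L1 overlap ABALON on the opposite strand, a gene that itself had a mean of 0.541 CPM.

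BCL2L2 encodes BCL-W, a further anti-apoptotic protein. It stood at 28.6, 27.7 and 22.7 CPM in full medium, 38.5, 29.1 and 34.7 at 0.28 mM, 29.6, 30.5 and 31.9 at 0.20 mM, with 29.1, 29.2 and 31.3 at 0.12 mM and then 31.9, 26.9 and 40.3 at 0.04 mM. The groups did not overlap at 0.28, 0.20 and 0.12 mM and overlapped at 0.04 mM. Its largest difference was 0.36 at 0.28 mM (SE 0.117, 95% interval 0.13 to 0.60, adjusted p = 0.0916, edgeR). At 0.04 mM the difference was 0.28 (adjusted p = 0.132), and 0.14 without the libraries high in mitochondrial rRNA. Of its exonic bases, 24.3% overlap the read-through gene BCL2L2-PABPN1 or PPP1R3E.

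The group means of the effectors were lower than in full medium at every limited concentration, and none of these differences passed the test. BAK1, which sits in the outer mitochondrial membrane, had 65.2, 67.8 and 63.7 CPM in full medium and 60.9, 56.4 and 58.1 at 0.04 mM. Those groups did not overlap, nor did those at 0.28 mM (62.2, 61.9 and 59.6 CPM), while 63.8, 70.4 and 55.8 at 0.20 mM and 69.9, 59.4 and 64.2 at 0.12 mM lay on both sides. The difference at 0.04 mM was -0.17 (SE 0.0861, 95% interval -0.34 to 0.01, adjusted p = 0.207, edgeR). BAX, which moves from the cytosol to mitochondria, had 38.3, 29.6 and 25.6 CPM in full medium, 38.2, 28.5 and 24.2 at 0.28 mM and 33.3, 31.8 and 20.2 at 0.20 mM. At 0.12 mM it had 41.5, 24.0 and 23.6 CPM and at 0.04 mM 38.0, 26.7 and 20.5. Replicate 1 was highest and replicate 3 lowest in all 5 groups, a spread wider than any difference between group means. The difference at 0.04 mM was -0.13 (SE 0.118, 95% interval -0.37 to 0.11, adjusted p = 0.513).

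Groups did not overlap in 3, 3, 2 and 4 of the 10 members at 0.04 mM, 0.12 mM, 0.20 mM and 0.28 mM. Against full medium these were MCL1, BCL2L1 and BAK1 at 0.04 mM, MCL1, BCL2L1 and BCL2L2 at 0.12 mM, MCL1 and BCL2L2 at 0.20 mM, and all 4 of these genes at 0.28 mM. Over all genes tested, 15.2%, 12.2%, 15.5% and 9.29% had groups that did not overlap at 0.04 mM, 0.12 mM, 0.20 mM and 0.28 mM. BAK1 was the one whose limited libraries lay below full medium.

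None of the 5 BH3-only genes passed the test at any concentration. PMAIP1, which encodes NOXA, the BH3-only protein known to bind MCL1 and speed its degradation, had 6.92, 7.54 and 6.20 CPM in full medium. It had 7.18, 7.69 and 6.13 CPM at 0.28 mM, 7.51, 8.74 and 8.09 at 0.20 mM, with 8.26, 8.51 and 5.13 at 0.12 mM and then 9.32, 10.1 and 5.67 at 0.04 mM. Replicates 1 and 2 were above their full medium library at every concentration, while replicate 3 was below it at 0.28 mM and, further, at 0.12 and 0.04 mM, the libraries high in mitochondrial rRNA. The difference at 0.04 mM was 0.31 (SE 0.19, 95% interval -0.07 to 0.70, adjusted p = 0.297, edgeR), and 0.44 without those libraries (adjusted p = 0.149).

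BBC3, which encodes PUMA, was the scarcest member, with 9 to 61 counts per library. It had 5.54, 3.45 and 3.75 CPM in full medium and 3.82, 2.46 and 4.86 at 0.04 mM, and the groups overlapped. The difference of -0.28 (SE 0.314, 95% interval -0.92 to 0.36, adjusted p = 0.615, edgeR) could not be separated from 0 at this depth. BCL2L11, which encodes BIM and is known as a FOXO target, had 17.6, 18.2 and 20.3 CPM in full medium and 19.9, 19.5 and 22.7 at 0.04 mM. Its difference was 0.14 (SE 0.123, 95% interval -0.11 to 0.39, adjusted p = 0.509), and 10.9% of its exonic bases overlap MIR4435-2HG on the opposite strand, itself at a mean of 18.2 CPM.

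BID, which links death receptors to mitochondria once caspase-8 cuts it, had 28.9, 35.4 and 28.8 CPM in full medium and 23.9, 30.1 and 30.5 at 0.04 mM. Its difference was -0.16 (SE 0.114, 95% interval -0.40 to 0.07, adjusted p = 0.371, edgeR). BAD, which is held inactive by survival kinases, had 38.1, 48.0 and 43.9 CPM in full medium and 42.7, 51.9 and 49.5 at 0.04 mM, higher in 3 of 3 pairs. Its difference was 0.14 (SE 0.0994, 95% interval -0.06 to 0.35, adjusted p = 0.371), and 23.7% of its exonic bases overlap GPR137, at a mean of 28.4 CPM. At 0.12 mM, 0.20 mM and 0.28 mM the differences of these 5 BH3-only genes lay between -0.24 and 0.24, with adjusted p from 0.369 to 0.993.

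**Figure D3:**
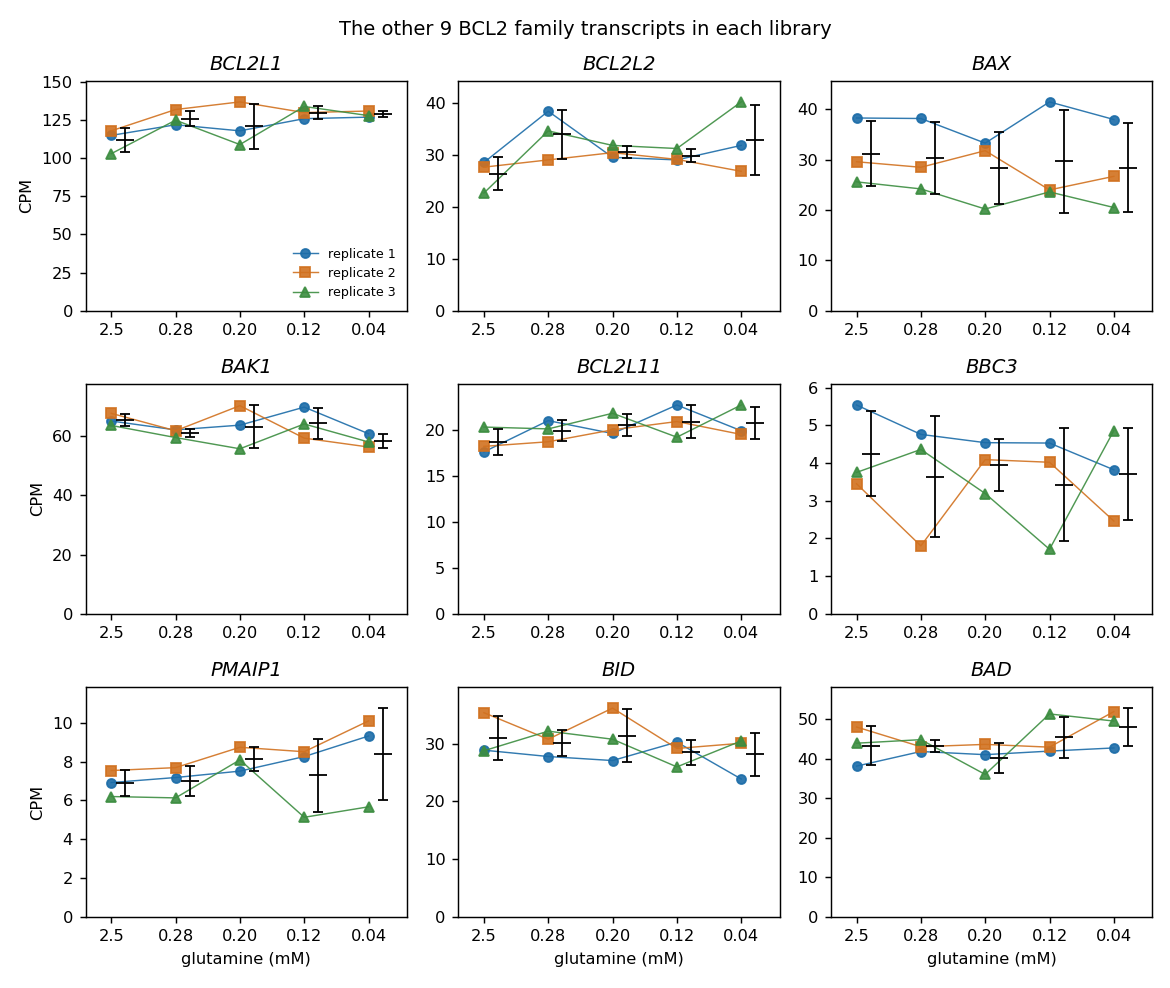
CPM of the other 9 members (y axes, each from 0) at each glutamine concentration in mM (x axes), with lines joining libraries of the same replicate number and black bars showing the mean with 1 SD (n = 3). BCL2L1 is above its full medium library in 12 of 12 limited libraries, which reuse the same 3 full medium libraries, and BAX separates by replicate number rather than by concentration.

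Levels between genes were compared per kilobase of exon. MCL1 was the most abundant of the 10, at a mean of 260 CPM per kilobase over 15 libraries (range 187 to 302), above BCL2L1 at 37.3 (31.1 to 41.5). BAK1 followed at 28.3 (25.2 to 31.8) and BAD at 25.8 (21.1 to 30.4), and neighbours in this run from BCL2L1 to BAD overlapped over libraries. BAX was at 11.4 (7.82 to 16.1), BCL2L2 at 7.35 (5.43 to 9.61) and BID at 6.72 (5.37 to 8.15), again with overlap between neighbours. PMAIP1 at 3.37 (2.29 to 4.54) and BCL2L11 at 3.03 (2.65 to 3.41) overlapped, and BBC3 was lowest at 1.19 (0.538 to 1.74). The range of MCL1 was clear of BCL2L1, BAD of BAX, BID of PMAIP1 and BCL2L11 of BBC3. Exon lengths are from GENCODE 29 and count every annotated exon, so an unused isoform lowers the value.

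**Figure D4:**
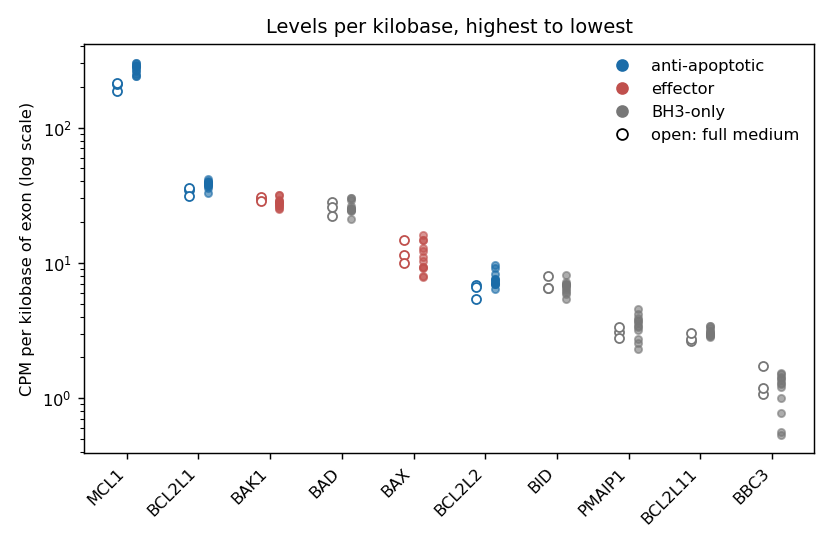
CPM per kilobase of exon (y axis, log scale) of the 10 members in order of their mean, with 1 point per library, open for full medium and filled for the limited groups, and colours for the role. MCL1 sits at 187 to 302, BBC3 at 0.538 to 1.74.

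The balance of MCL1 against the other members was read from the same values. MCL1 made up 60.5, 62.1 and 65.2% of the summed 10 members in full medium and 65.2 to 73.3% in the limited libraries. The ratio of MCL1 to BCL2L1 was 5.38, 5.88 and 6.89 in full medium and 6.83, 7.34 and 7.32 at 0.04 mM. It was higher than in the full medium library of the same number in 12 of 12 limited libraries, although the ranges overlapped (limited 6.54 to 9.17). The ratio of MCL1 to the summed effectors BAX and BAK1 was 4.22, 4.96 and 5.54 in full medium and 6.22, 8.10 and 8.25 at 0.04 mM, again higher in 12 of 12. The ratio of MCL1 to the 5 BH3-only genes was 4.83 to 5.47 in full medium and 6.21 to 8.37 in the limited libraries, with no overlap, and that of MCL1 to PMAIP1 was 60.3 to 77.2 and 63.0 to 125. BCL2L1 and BCL2L2 together, over the 7 pro-apoptotic genes, stood at 0.469 to 0.516 in full medium and 0.512 to 0.622 in the limited libraries, and were higher in 11 of 12. BAD, at a mean of 25.8 CPM per kilobase, weighs most in the sum of the 5 BH3-only genes, where BID was next at 6.72. The ratios with MCL1 in them carry its change and are no further test. All counts out of 12 reuse the same full medium libraries.

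**Figure D5:**
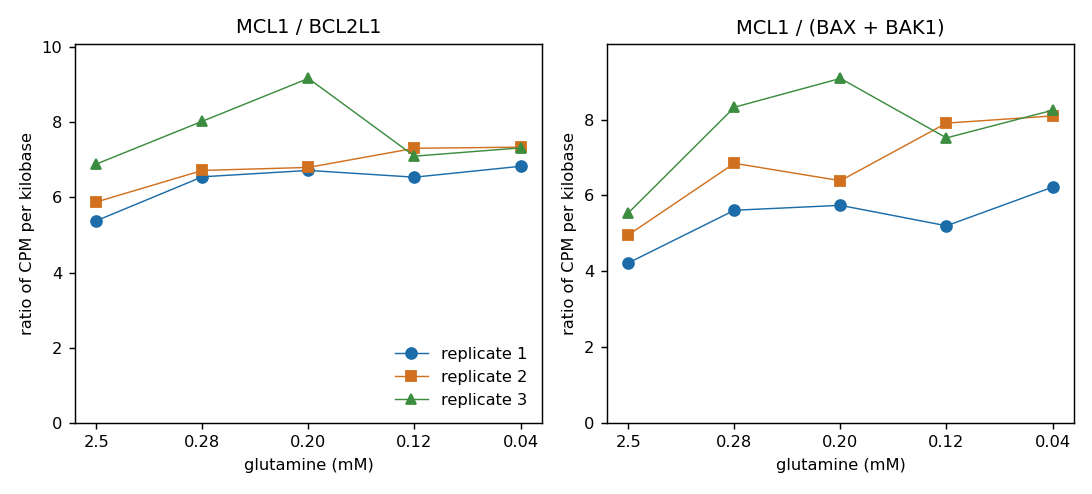
Ratio of MCL1 to BCL2L1 (left) and to BAX plus BAK1 (right), each in CPM per kilobase, by glutamine concentration in mM, with lines joining libraries of the same replicate number. In both panels every limited library lies above the full medium library of its number, and on the right the full medium libraries lie between 4.22 and 5.54.

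The RefSeq promoters (GRCh38.p14, 250 bases before to 50 after the start) were found for 8 of the 10 members, and not for MCL1 and BCL2L2. Those of BCL2L1, the member closest to the test, and of the pro-apoptotic BAX, BBC3 and PMAIP1 are shown for their unlike promoter motifs, BCL2L1 at the first of its 2 listed starts. Each runs 5′ to 3′ along the gene. Capitals mark every match on either strand to the cyclic AMP response element (TGACGTCA), the AP-1 site (TGANTCA), the box known as CCAAT, the GC box (GGGCGG), the E box (CACGTG), the site type bound by ATF4 (TGATGNAAT), the core element TATAAA, and the serum response factor box CArG.
BCL2L1, chr20:31723914-31724213, minus strand: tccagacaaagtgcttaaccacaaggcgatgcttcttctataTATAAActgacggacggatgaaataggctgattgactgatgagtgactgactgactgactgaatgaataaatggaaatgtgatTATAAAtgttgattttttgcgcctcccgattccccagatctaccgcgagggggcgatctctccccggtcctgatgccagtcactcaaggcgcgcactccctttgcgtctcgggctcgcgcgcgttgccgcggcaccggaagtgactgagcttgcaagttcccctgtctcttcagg
BAX, chr19:48954625-48954924, plus strand: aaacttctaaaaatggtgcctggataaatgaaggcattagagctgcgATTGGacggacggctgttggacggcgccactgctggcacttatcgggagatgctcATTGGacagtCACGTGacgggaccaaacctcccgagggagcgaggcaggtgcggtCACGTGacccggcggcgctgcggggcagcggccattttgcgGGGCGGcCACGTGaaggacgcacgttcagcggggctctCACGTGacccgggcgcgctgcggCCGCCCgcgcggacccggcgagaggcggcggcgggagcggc
BBC3, chr19:47232618-47232917, minus strand: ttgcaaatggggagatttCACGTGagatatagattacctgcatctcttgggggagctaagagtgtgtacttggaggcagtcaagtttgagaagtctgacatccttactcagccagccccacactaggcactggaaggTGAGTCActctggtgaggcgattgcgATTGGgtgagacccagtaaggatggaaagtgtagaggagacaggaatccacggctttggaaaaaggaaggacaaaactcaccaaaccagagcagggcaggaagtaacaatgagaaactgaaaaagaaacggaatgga
PMAIP1, chr18:59899746-59900045, plus strand: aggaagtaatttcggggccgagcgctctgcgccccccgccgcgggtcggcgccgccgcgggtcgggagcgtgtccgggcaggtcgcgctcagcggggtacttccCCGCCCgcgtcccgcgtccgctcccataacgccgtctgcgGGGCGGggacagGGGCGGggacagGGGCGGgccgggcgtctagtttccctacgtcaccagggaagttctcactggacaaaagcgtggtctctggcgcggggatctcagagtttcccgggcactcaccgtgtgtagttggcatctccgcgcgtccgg

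BAX held 4 E boxes, whose first bases lie at -138, -93, -45 and -14 with the start as 0, and BBC3 held 1 at -232. Over 27305 promoters of this length, 7.43% held an E box, and among the 8 members 3 did (BBC3, BAX and BID). The AP-1 letters stood in BBC3 alone, at -113, against 7.76% of all promoters. GC boxes stood in 7 of 8 members (all but BBC3), where 44.6% of single promoters held one, and CCAAT in 5 of 8, where 35.7% did. A member was counted over all its listed starts (2 for BCL2L1 and BAD, 5 for BID), so these shares are not like for like. The GC box of BCL2L1 lies at -5 from the start that is not shown. TATAAA stood only in BCL2L1, at -208 and -125, against 3264 of the 27305 promoters. The cyclic AMP response element (1.98% of all promoters), the ATF4-type site (1.02%) and the CArG box (1.29%) had no match in the 8. No 2 of the matches in the sequences shown overlap. A match is a run of letters and no evidence that a factor binds there.

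Genes around the family were counted from lists. Of the 14 other BCL2 family and BH3 genes 8 were tested, and at 0.04 mM, where 6.23% of all genes fell, 0 rose and 1 fell (median -0.0932). That was BCL2L12 (-0.37, SE 0.115, adjusted p = 0.0289, edgeR), a divergent family member whose exons overlap IRF3, and its call was lost without replicate 2 or 3 at 0.04 mM or replicate 3 of full medium (-0.52 to -0.26 over the 6 omissions). It was also lost without the libraries high in mitochondrial rRNA (-0.35, adjusted p = 0.0743) and with spike-in scaling (adjusted p = 0.133). At 0.12 mM, 0.20 mM and 0.28 mM 0 of the 8 rose and 0, 1 and 0 fell, where 3.9%, 7.15% and 0.846% of all genes fell. The 1 at 0.20 mM was BOK (-0.32, adjusted p = 0.0375, edgeR). Its call was lost in 5 of the 6 omissions (-0.36 to -0.25), with spike-in scaling (adjusted p = 0.14) and without the block. Downstream of the membrane, 4 of 18 apoptosome, caspase and inhibitor genes rose at 0.04 mM and 2 fell (median -0.0917), where 7.21% of all genes rose and 6.23% fell. With spike-in scaling 2 of the 18, BIRC3 and BIRC2, passed. BIRC3, an inhibitor of apoptosis and ubiquitin ligase, stood at 17.2, 34.5 and 36.9 CPM in full medium and 31.2, 52.8 and 55.4 at 0.04 mM. Its groups overlapped, but every library was above its own number, by 0.68 in the fit (SE 0.102, adjusted p = 4.16e-05, edgeR).

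Its neighbour and relative BIRC2 rose by 0.49 (SE 0.106, adjusted p = 0.00214, edgeR), APAF1, the scaffold of the apoptosome, by 0.45 (adjusted p = 0.00736) and BIRC6, a giant inhibitor protein, by 0.24 (adjusted p = 0.0362). BIRC5, which encodes survivin, fell by 0.24 (adjusted p = 0.0268) and CYCS, which encodes cytochrome c, fell by 0.26 (adjusted p = 0.0275). Leaving out single libraries of the 2 groups ended some calls: BIRC6 (0.14 to 0.31) without any but replicate 3 of full medium, BIRC5 (-0.33 to -0.18) without replicate 2 or 3 of either group, and CYCS (-0.34 to -0.15) without replicate 3 of either group or replicate 2 of full medium. These 3 calls were also lost without the libraries high in mitochondrial rRNA (0.27, -0.18 and -0.16, adjusted p = 0.0589, 0.169 and 0.215). The call of APAF1 was lost without replicate 1 at 0.04 mM (0.30). With spike-in scaling the calls of APAF1, BIRC6, BIRC5 and CYCS were lost (adjusted p = 0.09, 0.35, 0.271 and 0.216). The rises and falls were 2 and 0 of 18 at 0.12 mM, 4 and 0 at 0.20 mM, and 0 and 0 at 0.28 mM, where 1 had an unadjusted p under 0.05 and DESeq2 called 0. Over all genes 4.41%, 7.67% and 1.23% rose and 3.9%, 7.15% and 0.846% fell at these concentrations. At 0.28 mM 2196 of 13828 genes had an unadjusted p under 0.05. Between 0.04 mM and 0.28 mM, where 0.0434% of all genes passed, 1 of the 18 did, BIRC3 (0.58 higher at 0.04 mM, SE 0.101, adjusted p = 0.0142, edgeR), which DESeq2 did not call and which did not pass without the block.

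In the death receptor arm 1 of 10 genes tested rose at 0.04 mM, and 2, 2 and 0 rose at 0.12 mM, 0.20 mM and 0.28 mM, with 0 that fell. Over all genes 7.21%, 4.41%, 7.67% and 1.23% rose, so the counts at 0.04 mM and 0.28 mM are close to the background. CFLAR, which encodes the caspase-8 inhibitor FLIP, stood at 49.8, 47.6 and 37.3 CPM in full medium and 52.1, 57.0 and 67.3 at 0.04 mM (0.35, SE 0.102, adjusted p = 0.0186, edgeR). The groups did not overlap, and the call was lost without replicate 2 or 3 at 0.04 mM or replicate 3 of full medium (0.19 to 0.49 over the 6 omissions), and without the libraries high in mitochondrial rRNA (0.27, adjusted p = 0.117). With spike-in scaling 0 of the 10 passed at any of the 4 concentrations (CFLAR at 0.04 mM, adjusted p = 0.137).

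Among genes that act on the MCL1 protein, 4 of 12 tested rose at 0.04 mM, 3 at 0.12 mM, 2 at 0.20 mM and 0 at 0.28 mM, with 0 that fell (median 0.132 at 0.04 mM). Over all genes 7.21%, 4.41%, 7.67% and 1.23% rose at these concentrations. With spike-in scaling 0 of the 12 passed at any of the 4 concentrations (at 0.04 mM adjusted p = 0.274, 0.271, 0.175 and 0.134 for GSK3B, BTRC, USP9X and MAPK8). They act in opposite directions. GSK3B (0.26, SE 0.0665, adjusted p = 0.00714, edgeR) is a kinase known to mark MCL1 for degradation, and BTRC (0.30, adjusted p = 0.0389) is a ubiquitin ligase subunit for the marked protein. USP9X (0.31, SE 0.0791, adjusted p = 0.00744) is a deubiquitinase known to stabilise MCL1, and MAPK8 (0.40, SE 0.12, adjusted p = 0.0221) encodes the kinase JNK1, which also phosphorylates it. Without the libraries high in mitochondrial rRNA, 2 of 12 passed, and BTRC (0.28, adjusted p = 0.09) and MAPK8 (0.32, adjusted p = 0.118) were not among them. The call of BTRC was lost without replicate 2 or 3 of either group (0.24 to 0.36 over the 6 omissions), and that of MAPK8 without replicate 2 or 3 at 0.04 mM or replicate 1 or 3 of full medium (0.33 to 0.47). That of USP9X was lost without replicate 1 of either group (0.22 to 0.40), and that of GSK3B without replicate 2 at 0.04 mM (0.23 to 0.29).

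Of the VDAC channel genes and mitochondrial partners, 9 of 10 were tested. At 0.04 mM, where 6.23% of all genes fell, 1 of the 9 fell, PPIF, which encodes cyclophilin D (-0.22, adjusted p = 0.0241, edgeR). That call was lost without replicate 2 or 3 of either group (-0.29 to -0.18 over the 6 omissions), and without the libraries high in mitochondrial rRNA (-0.22, adjusted p = 0.098) and with spike-in scaling (adjusted p = 0.306). At 0.12 mM, 0.20 mM and 0.28 mM 0 of the 9 passed with edgeR or DESeq2, and 0, 1 and 0 had an unadjusted p under 0.05. Over all genes 8.31%, 14.8% and 2.08% passed with edgeR, and 3090, 3931 and 2196 of 13828 had an unadjusted p under 0.05.

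Short-lived response transcripts, listed because the MCL1 transcript is of that kind, rose in 5, 4, 3 and 3 of 12 at 0.04 mM, 0.12 mM, 0.20 mM and 0.28 mM, and 0 fell (median 0.224 at 0.04 mM), where 7.21%, 4.41%, 7.67% and 1.23% of all genes rose. PHLDA1, a growth factor response gene, stood at 136, 115 and 94.8 CPM in full medium and 168, 201 and 175 at 0.04 mM, with no overlap (0.65, SE 0.0901, adjusted p = 1.47e-05, edgeR). DUSP6, an ERK phosphatase, stood at 138, 132 and 112 and at 166, 188 and 180 CPM, again with no overlap (0.47, SE 0.0763, adjusted p = 9.59e-05). DUSP1, another phosphatase, rose by 0.44 (adjusted p = 0.000196), JUNB by 0.37 (adjusted p = 0.00256) and IER2 by 0.26 (adjusted p = 0.0317). The call of IER2 was lost without replicate 1 or 2 at 0.04 mM or replicate 2 or 3 of full medium (0.18 to 0.31 over the 6 omissions). At 0.12 mM and 0.20 mM PHLDA1, DUSP6 and DUSP1 also rose. At 0.28 mM they passed the test (0.40, 0.34 and 0.29, adjusted p = 0.0173, 0.0147 and 0.0313, edgeR), and there each call was lost without replicate 1 or 3 at 0.28 mM or replicate 2 or 3 of full medium (0.29 to 0.57, 0.24 to 0.47 and 0.18 to 0.38 over the 6 omissions), that of DUSP1 also without replicate 2 at 0.28 mM. With spike-in scaling 3, 1, 2 and 0 of the 12 passed at 0.04 mM, 0.12 mM, 0.20 mM and 0.28 mM, and JUNB (adjusted p = 0.0867) and IER2 (adjusted p = 0.325) were not among them at 0.04 mM. DUSP6 and IER2 share 40.5 and 30.8% of their exonic bases with other genes and are uncertain for that reason. None of the list genes named at 0.04 mM passed without the block, where PHLDA1 had the lowest adjusted p (0.0782).

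The genes whose pattern was most like that of MCL1 were found by Pearson's r of log2 CPM over the 15 libraries, with the mean of each replicate number removed, among 10306 genes with a symbol and at least 5 CPM. They were NCOA3, a nuclear receptor coactivator (r = 0.984), IL31RA, a cytokine receptor chain (0.957), SOCS7 (0.957), TES (0.957) and the repressor ETV6 (0.948). Among the most opposite were C11orf24 (-0.962) and SLC25A11, the mitochondrial oxoglutarate carrier (-0.958). The points share the full medium step and the scaling of each library, so these values describe and test nothing. Of the 5, 1 stayed among the first 5 by Spearman's rho and 1 with the replicate means left in. BBC3, with a mean under 5 CPM, was not ranked. Of the members ranked, BCL2L1 was the most like MCL1 (0.68), followed by BCL2L2 (0.548), BCL2L11 (0.537) and PMAIP1 (0.465). This order depended on the measure, since by Spearman's rho PMAIP1 (0.639) came before BCL2L1 (0.468). BAD was near 0 (0.0536), and BID (-0.25), BAX (-0.35) and BAK1 (-0.441) ran the other way. With the replicate means left in, BCL2L1 stayed first of the members (0.539) and BID was near 0 (0.0454).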

How the data were processed

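Total RNA of MCF10A cells was depleted of ribosomal RNA, spiked with ERCC controls and sequenced, per the labels' protocols. The deposited table holds whole-number counts made by the authors for 62754 genes and 92 spike-ins in 15 libraries, and the submitters' processing notes name GRCh38.p14. No source used here gives the aligner, the counting tool or the strand setting. Nothing in the labels says what the replicate numbers share. The p-values of the fit with the block measure only the spread between these libraries that is left after group and replicate number.

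The 10 members and the gene lists were chosen with earlier results of these data known, and so was the block. Counts were used as deposited in edgeR 4.0.16 (R 4.3.3): the filter filterByExpr (counts of at least 10, in total 15, by group) kept 13828 genes and at least 99.72% of each library's counts, followed by TMM factors and 1 quasi-likelihood fit with terms for group and replicate number. Calls use an adjusted p under 0.05. The spike-ins made up 1.03 to 1.58% of all counts and stayed out of library sizes. CPM values are per TMM-scaled library, and log2 CPM add a prior count of 2. Standard errors are the log2 change divided by the root of F, and 95% intervals use the total degrees of freedom.

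With group means removed, the 30 pairs of libraries that share a replicate number correlated at r 0.184 to 0.489, all above 0.1. The 60 pairs with different numbers in different groups lay at -0.406 to 0.0549. Removing group means forces r between numbers down where r within numbers is positive, so the second range is no separate evidence. For 15 of 15 libraries the closest library had the same number. The pairing is therefore a feature of the data, not of a stated design.

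Gene symbols were found for 42343 genes. Exon lengths, overlaps and coordinates came from GENCODE 29 (GRCh38), which may differ from the annotation used for counting, and promoters from RefSeq. Of each list, the genes past the test at 0.04 mM are named, up to 8. BOK, past it at 0.20 mM only, is named as well, and FAS and CDK1 at other concentrations are counted only. For 2 genes that the rules name, and a list of transcription factors, results are not reported here. SLC25A6 is listed at 0 in all libraries and was not tested. Alternatives were no block, DESeq2 1.42.0, its size factors, spike-in scaling, 2 other filters (1 count, or 5 CPM in 3 libraries), a fit of only the groups compared, omission of single libraries and of replicate 3, and, for the slope, all 15 libraries. Omission of the 2 libraries above 1% mitochondrial rRNA was chosen after seeing the data. The code was tested on simulated data.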

Additional observations from a re-analysis of the deposited data

How the results depend on the processing

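Without the replicate block, which the pairing by number rests on, MCL1 had 0.45, 0.43, 0.43 and 0.41 at 0.04 mM, 0.12 mM, 0.20 mM and 0.28 mM (adjusted p = 0.157, 0.39, 0.308 and 1.0) and 0.876 for any difference. Then 0 members and 6, 0, 2 and 0 genes passed, 0 for 0.04 against 0.28 mM and 0 for any difference, against 1858, 1149, 2050, 287, 6 and 1473 with it. At an unadjusted p under 0.05 there were 1609, 1111, 1415, 616, 284 and 597 genes.

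Spike-in scaling gave MCL1 0.24, 0.37 and 0.28 at 0.12 mM, 0.20 mM and 0.28 mM and 0.102 for any difference, with 0 members past the test there. It called 506 genes at 0.04 mM (282 higher, 224 lower), 1206 at 0.12 mM (76 and 1130), then 421 at 0.20 mM (141 and 280), 120 at 0.28 mM (18 and 102), with 644 for any difference. With TMM the splits were 997 and 861, 610 and 539, 1061 and 989, and 170 and 117. Uncalled members changed sign under it: BCL2L2 -0.0096, PMAIP1 -0.0691 and BAD -0.13 at 0.12 mM, BID -0.0448 at 0.20 mM, and BCL2L11 -0.0342, PMAIP1 -0.11 and BAD -0.13 at 0.28 mM. Between 0.04 and 0.28 mM they were BCL2L2 0.051, BBC3 0.073, BAX 0.0332, BAK1 0.0555 and BID 0.000839, and in the slope BCL2L2 -0.0232, BAX -0.00869 and BAK1 -0.00273.

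With the compared groups alone MCL1 was 0.42 at 0.12 mM (0 members), and 1189, 296 and 78 genes passed at 0.04 mM, at 0.12 mM and for 0.04 against 0.28 mM. Without replicate 3 in all groups MCL1 was 0.36 at 0.28 mM (0 members), and 985, 455, 978, 1, 3 and 454 genes passed, in the order above. BAD was then -0.00201 at 0.12 mM and -0.00669 at 0.28 mM, BAK1 0.0158 and BID -0.0234 at 0.20 mM, and BCL2L11 -0.0118 between 0.04 and 0.28 mM. BAD was -0.00368 at 0.28 mM without the block. Without the libraries high in mitochondrial rRNA BAD was -0.0351 at 0.12 mM and BCL2L1 -0.00852 between 0.04 and 0.28 mM. DESeq2 called 16 genes between 0.04 and 0.28 mM and 25 in the slope, and no filter beyond 1 count 63 and 34. The slope over all 15 libraries was -0.0803 for MCL1 and -0.0427 for BCL2L2, with 2 members and 2163 genes past the test. Of the 5 genes most like MCL1, 1 stayed in the top 5 by either alternative.

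With each library left out in turn, MCL1 ranged from 0.36 to 0.44 at 0.28 mM, where 0 to 1 members passed, and 1 to 2 members passed at 0.04 and 0.12 mM. Genes past the test ranged from 956 to 2058, 537 to 1439, 977 to 1857, 24 to 780, 1 to 16, 0 to 4 (slope) and 838 to 1805 (any difference). Sign changes of uncalled members came within these ranges: at 0.12 mM BBC3 -0.51 to 0.014, BAX -0.21 to 0.0502, BAK1 -0.0819 to 0.0572 and BAD -0.0282 to 0.14. At 0.20 mM they were BAK1 -0.15 to 0.00352 and BID -0.0593 to 0.0664, and at 0.28 mM BBC3 -0.45 to 0.0534, PMAIP1 -0.00216 to 0.0656, BAX -0.0931 to 0.000655, BID -0.10 to 0.02 and BAD -0.0554 to 0.0606. Between 0.04 and 0.28 mM they were BCL2L2 -0.22 to 0.0237, BCL2L11 -0.00391 to 0.0932 and BBC3 -0.32 to 0.17, and in the slope BCL2L2 -0.0262 to 0.0618, BCL2L11 -0.0352 to 0.00356 and BBC3 -0.0114 to 0.12.

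MCL1 kept its direction and side of the threshold in 8, 6, 7 and 6 of 9 alternatives, single omitted libraries aside, against full medium at 0.04 mM, 0.12 mM, 0.20 mM and 0.28 mM, and for any difference it stayed past the test in 6 of 8. The cause of each change was not tested. The lowest counts were those of BBC3 (9 to 61 per library) and PMAIP1 (21 to 104).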
